A study of Homo sapiens with 8 samples.

Results

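The genes described here are 28 genes of cholesterol synthesis, of the SREBP transcription factors that control it, and of the fatty acid synthesis that the same factors control. They form a list of names chosen for function, with earlier results of these data known, and all 28 were found by Ensembl identifier among the 57992 genes counted. RNAseq covered 8 samples of RKO, an established human colon carcinoma cell line, grown in medium with fetal calf serum. Control siRNA was given to 4 of them and A20 siRNA to the other 4, and all 8 received recombinant human wnt3a at 50 ng/mL for 24 hours. Samples without wnt3a were not analysed here, and the only comparison was A20 siRNA against control siRNA. The labels number the replicates 1 to 4 in each group without saying whether they were separate cultures, so the p-values measure only the spread between these samples.

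Total counts per sample were between 21226451 and 34194273, and 13412 genes passed the filter on low counts. TNFAIP3, the gene of A20, was the check of the labels. Its level in CPM, edgeR's unit of counts scaled to library size with TMM factors, was 4.92, 5.83, 5.59 and 5.54 in control replicates 1 to 4 and 3.47, 3.01, 3.40 and 3.43 in A20 siRNA replicates 1 to 4. The knockdown left 60.8% of the control level, with a log2 fold change of -0.71 (standard error, SE, 0.10; adjusted p = 0.00258). In bulk RNA, fewer cells that express a gene and less RNA per cell cannot be told apart. Of 5 epithelial markers EPCAM, KRT8 and KRT18 were expressed, and KRT19 and CDH1 had no count in any sample. Of 4 intestinal markers CDX2 was expressed and the others were at or near 0, and none of 18 markers of fibroblasts, immune, endothelial, fat and liver cells passed the filter. A pair of libraries stood apart from their groups in how levels followed gene length. Spearman's rho with exonic length was taken on a sample's log2 deviations from the mean of all 8 samples, so it carries any group difference. It was 0.0794 in control replicate 1 and between -0.200 and -0.111 in the other controls. It was -0.0816 in A20 siRNA replicate 2 and between 0.0686 and 0.178 in the other A20 siRNA samples. The pair was picked from these data by this trend, so fits without both libraries are no independent support.

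Cells make cholesterol from acetyl-CoA through mevalonate, farnesyl diphosphate, squalene and lanosterol. SREBF1 and SREBF2 encode SREBP1 and SREBP2, which are made as precursors in the membrane of the endoplasmic reticulum. When sterols are low, SCAP escorts them to the Golgi apparatus, where they are cut and released to the nucleus. INSIG1 retains SCAP when sterols are plentiful and is itself a target of SREBP. SREBP2 is known mainly for the cholesterol genes and SREBP1 for the fatty acid genes. Serum carries cholesterol in lipoproteins, which lowers SREBP activity in cultured cells. Transcript levels of these genes do not measure sterol content or enzyme activity.

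SREBP binds sterol regulatory elements (SRE) in promoters, usually beside CCAAT boxes, which bind NF-Y, and GC boxes, which bind Sp1. RefSeq promoter windows on GRCh38.p14, from 250 bases before to 50 after a start site, were found for 24 of the 28 genes. Motifs were searched on both strands. The classical SRE of 10 bases, in capitals in the SREBF2 stretch printed here, was in the window of SREBF2 alone among the 24, against 0.0586% of 27305 genes with a window. CCAAT was found in 19 of the 24 genes (79.2%) and in 39.7% of all genes with a window, and the GC box GGGCGG in 23 (95.8%) and 48.3%. The shorter string TCACNCCA was found in SREBF2, MVK and MSMO1 (12.5% of the 24 and 4.80% of all) and CACNCCAC in 6 (25.0% and 7.05%). In SREBF2 all of these SRE strings overlapped in one place. The E-box CACGTG was found in SCAP, INSIG1, LSS and SC5D (16.7% and 8.77%). The table also holds non-coding genes, and some genes have several windows, so these shares are descriptions only.

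Promoter stretches upstream of the start site are shown for 5 genes. With all 8 samples in the test, MSMO1 was the only one with an adjusted p-value under 0.05, and EBP came closest to that. The others are SREBF2 with the long SRE, and INSIG1 and SCD as classical targets of SREBP. Capitals mark the CCAAT boxes (ATTGG when read from the other strand) and the SRE strings, which in INSIG1 and SCD lie on the other strand. The stretch of MSMO1 held 4 CCAAT boxes, with first bases at -185, -139, -76 and -34 from the start, and TCACTCCA at -156. The stretch of EBP held CCAAT boxes at -70 and -30 and none of the SRE strings. The stretches differ in length, so their numbers of boxes cannot be compared. Outside the stretches shown, the window of EBP held a CCAAT box at -191 and that of SCD held boxes at -229 and -186.
MSMO1, chr4:165327419-165327658, strand +: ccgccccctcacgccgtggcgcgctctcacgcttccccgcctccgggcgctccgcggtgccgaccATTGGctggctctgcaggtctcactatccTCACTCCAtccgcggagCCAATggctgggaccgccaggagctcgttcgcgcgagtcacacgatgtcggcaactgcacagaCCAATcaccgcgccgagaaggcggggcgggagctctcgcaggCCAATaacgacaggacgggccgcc
EBP, chrX:48521678-48521797, strand +: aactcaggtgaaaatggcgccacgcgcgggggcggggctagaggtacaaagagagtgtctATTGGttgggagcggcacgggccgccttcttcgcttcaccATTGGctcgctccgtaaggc
SREBF2, chr22:41832935-41833014, strand +: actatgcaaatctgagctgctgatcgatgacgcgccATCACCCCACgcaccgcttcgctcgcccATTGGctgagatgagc
INSIG1, chr7:155297638-155297717, strand +: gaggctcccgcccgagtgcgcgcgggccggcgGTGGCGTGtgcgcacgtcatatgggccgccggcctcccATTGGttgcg
SCD, chr10:100347083-100347162, strand +: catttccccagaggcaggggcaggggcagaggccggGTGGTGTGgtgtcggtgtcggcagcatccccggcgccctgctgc

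After A20 siRNA the cholesterol and SREBP genes stayed close to their control levels. MSMO1, a methylsterol oxidase, was lower, by 7.29% of its control mean, and it was the only one of the 28 with an adjusted p-value under 0.05. No gene was higher at that threshold. Among all tested genes 0.611% were called lower and 0.634% higher, 1.25% in either direction. The log2 fold changes of the 28 genes ran from -0.15 to 0.04 with a median of -0.03, against a median of 0.0027 over all tested genes. By sign alone, 22 of the 28 values (78.6%) were below 0, against 48.5% of all tested genes. At an unadjusted p-value under 0.05, 7 of the 28 were lower and none higher, where 7.37% and 8.81% of all tested genes were. The groups did not overlap for 4 of the 28, all lower, against 3.90% of all tested genes lower and 3.71% higher.

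Most of these genes had narrow intervals, which cover only the spread between these samples. The 95% intervals of the change lay within 20% of the control level in either direction for 27 of 28 genes and within 10% for 19. The exception to the wider bound was CYP51A1, whose interval reached down to -21.6%. These intervals were not adjusted for the number of genes.

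**Figure D1:**
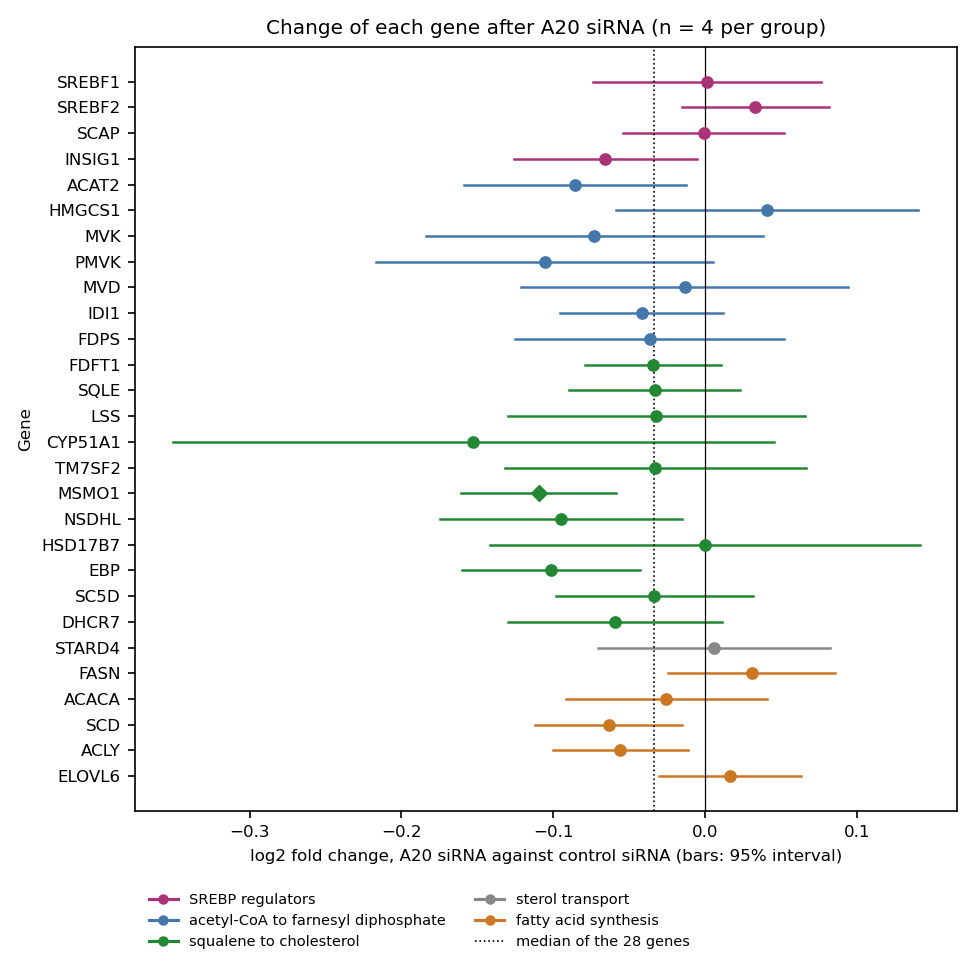
Log2 fold change of each of the 28 genes after A20 siRNA (horizontal axis), ordered and coloured by role, with bars for the 95% interval and a dotted line at their median of -0.03. The diamond marks MSMO1, the only gene past the adjusted threshold. The intervals of 21 of the 28 genes hold 0.

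The regulators of the pathway did not pass the test in either direction. SREBF2 (chromosome 22, 41833105 to 41907306, GRCh38) had 181.0, 183.8, 185.3 and 189.3 CPM with control siRNA and 192.2, 191.2, 185.1 and 187.6 CPM with A20 siRNA. Its log2 fold change was 0.03 with a 95% interval from -0.01 to 0.08, and the groups overlapped. SREBF1 (chromosome 17, 17810399 to 17837002) had 65.7, 64.7, 66.5 and 60.5 CPM with control siRNA and 66.8, 66.9, 61.7 and 61.7 CPM with A20 siRNA, so the means of 64.3 ± 2.69 and 64.3 ± 2.96 (SD, n = 4 each) differed by less than the spread. SCAP was likewise level, at 108.7 ± 1.18 and 108.6 ± 3.08 CPM (SD, n = 4 each). Its interval ran from -3.67% to 3.67%.

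INSIG1 (chromosome 7, 155297776 to 155310235), which feeds back on SCAP, was the regulator with the smallest p-value. Its control samples had 73.5, 72.8, 71.7 and 71.2 CPM and its A20 siRNA samples 68.5, 66.8, 69.4 and 72.3 CPM. A20 siRNA replicates 1, 2 and 3 lay below all controls, and replicate 4 lay among them. The log2 fold change was -0.07 (SE 0.03, adjusted p = 0.266).

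The genes that take squalene to cholesterol held the one called change. All 11 had log2 fold changes below 0, from -0.15 to -0.0002, with a median of -0.03. MSMO1 passed the adjusted threshold, and MSMO1, EBP and NSDHL passed 0.05 before adjustment. MSMO1 (chromosome 4, 165327667 to 165343164), which begins the removal of the C-4 methyl groups after CYP51A1 has acted, had 101.4, 104.2, 100.8 and 101.7 CPM with control siRNA. With A20 siRNA it had 95.1, 93.4, 93.4 and 96.5 CPM, so the highest A20 siRNA sample lay under the lowest control. The means were 102.0 ± 1.48 and 94.6 ± 1.48 CPM (SD, n = 4 each). The log2 fold change was -0.11 (SE 0.02, adjusted p = 0.0340). The call depended on which samples were kept. With one sample left out the log2 fold change stayed between -0.12 and -0.10, but the adjusted p-value was under 0.05 only without control replicate 1 (0.0103) or A20 siRNA replicate 1 (0.0414). It was 0.132, 0.0774 and 0.109 without control replicates 2, 3 and 4, and 0.0506, 0.121 and 0.0555 without A20 siRNA replicates 2, 3 and 4. In the 6 fits that lost the call, between 0.0443% and 1.14% of all tested genes were called lower, against 0.611% with all samples. Without both libraries that stood apart the adjusted p-value was 0.0202, in a fit that called 3.61% of all tested genes lower. Those libraries were picked from these data, so that fit is no independent support for the call.

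EBP (chromosome X, 48521799 to 48528716), the sterol isomerase that moves a double bond in the ring, was next. It had 68.7, 72.6, 71.2 and 70.9 CPM with control siRNA and 65.7, 66.4, 67.2 and 64.6 CPM with A20 siRNA. The groups did not overlap, but the log2 fold change of -0.10 (SE 0.03) missed the threshold (adjusted p = 0.0718). EBP passed it without control replicate 1 (adjusted p = 0.0145) and without both libraries that stood apart (adjusted p = 0.0189). In those fits 3.18% and 3.61% of all tested genes were called lower, against 0.611% with all samples. With any other single sample left out EBP missed the threshold, with adjusted p-values up to 0.219. In GENCODE 44, 36.4% of its exonic bases also belong to another gene on the same strand. That gene was not among the genes counted, so any reads of it in the shared bases would have been counted for EBP.

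NSDHL (chromosome X, 152830967 to 152869729) acts after MSMO1 in the same demethylation. Its control samples had 38.4, 42.1, 40.1 and 42.1 CPM and its A20 siRNA samples 38.3, 36.7, 37.4 and 39.7 CPM. Control replicate 1 was low and the groups overlapped. The log2 fold change was -0.09 (SE 0.04, adjusted p = 0.218). Without control replicate 1 the adjusted p-value was 0.0495, in a fit that called 3.18% of all tested genes lower. With any other single sample left out NSDHL missed the threshold, with adjusted p-values up to 0.462. HSD17B7, the ketoreductase of that demethylation, was at 9.05 ± 0.459 and 8.99 ± 0.530 CPM (SD, n = 4 each), with an interval from -9.36% to 10.3%. HSD17B7 has a near-identical pseudogene copy, HSD17B7P2, with 70 unique counts over the 8 samples, and reads shared by both would have been left out of unique counts.

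FDFT1, SQLE and LSS, at the entry to the sterol branch, did not pass the adjusted threshold. FDFT1, the squalene synthase, had 178.6, 179.3, 181.2 and 181.1 CPM with control siRNA and 173.9, 177.0, 174.6 and 177.8 CPM with A20 siRNA. Its groups did not overlap, but they lay close together, with a log2 fold change of -0.03 and an interval from -5.33% to 0.711%. SQLE, the squalene epoxidase and a rate-limiting step, had overlapping groups at 241.1 ± 5.11 and 235.6 ± 9.12 CPM (SD, n = 4 each). LSS, which closes squalene epoxide into lanosterol, had 23.9 ± 0.450 and 23.4 ± 1.55 CPM (SD, n = 4 each).

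CYP51A1, the lanosterol demethylase, had the most negative log2 fold change of the 28 genes, -0.15, and the widest interval, from -0.35 to 0.05. Its control samples had 7.25, 6.66, 8.06 and 8.33 CPM and its A20 siRNA samples 7.46, 7.48, 6.18 and 5.64 CPM. The A20 siRNA samples thus split, replicates 1 and 2 among the controls and replicates 3 and 4 below them. Its reads numbered 120 to 256 in a sample, the fewest of the 28. In GENCODE 44, 68.2% of its exonic bases belong also to other genes on the same strand. Those genes were not among the genes counted, so the overlap did not set reads of CYP51A1 aside. Any reads of those genes in the shared bases would have been counted for CYP51A1. With so few reads, both its level and its change are uncertain. The later steps TM7SF2, SC5D and DHCR7 had log2 fold changes of -0.03, -0.03 and -0.06, and their groups overlapped.

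From acetyl-CoA to farnesyl diphosphate, none of 7 genes passed the adjusted threshold and 6 had log2 fold changes below 0. ACAT2, the cytosolic thiolase that joins acetyl-CoA units, was the one with an unadjusted p-value under 0.05. It had 55.2, 60.3, 56.5 and 59.3 CPM with control siRNA and 55.5, 56.4, 52.3 and 53.1 CPM with A20 siRNA. The groups overlapped through control replicate 1 alone, and the log2 fold change was -0.09 (SE 0.03, adjusted p = 0.229). Without both libraries that stood apart, ACAT2 had an adjusted p-value of 0.0402, in a fit that called 3.61% of all tested genes lower. With one sample left out its adjusted p-value was between 0.0657 and 0.501. Its exons overlap those of TCP1 on the opposite strand over 454 bases (17.2% of its length). The strand setting of the counts is not given in the sources used here, so reads of the pair may not have been told apart.

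HMGCS1, the cytosolic HMG-CoA synthase and a classical SREBP2 target, was the only gene of this stretch with a positive value. It had 50.6, 47.7, 42.4 and 46.3 CPM with control siRNA and 51.4, 47.4, 44.7 and 48.6 CPM with A20 siRNA. Its replicates spread more than the difference between the groups, and its interval ran from -0.06 to 0.14 on the log2 scale. PMVK, the phosphomevalonate kinase, was at 24.0 ± 1.45 and 22.2 ± 1.60 CPM (SD, n = 4 each). Its log2 fold change was -0.11, with an interval from -0.22 to 0.01. MVK and MVD, the enzymes before and after it, had log2 fold changes of -0.07 and -0.01. IDI1, which isomerises isopentenyl diphosphate, and FDPS, which makes farnesyl diphosphate, had -0.04 and -0.04. Their groups overlapped in all 4 cases.

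None of the 5 fatty acid genes passed the adjusted threshold, and SCD and ACLY had unadjusted p-values under 0.05. SCD (chromosome 10, 100347233 to 100364826), the stearoyl-CoA desaturase, had 764.2, 755.4, 746.4 and 782.1 CPM with control siRNA and 717.3, 717.2, 723.6 and 759.1 CPM with A20 siRNA. A20 siRNA replicate 4 lay among the controls and the others below them. Its log2 fold change was -0.06 (SE 0.02, adjusted p = 0.176). ACLY (chromosome 17, 41866917 to 41930542), which supplies cytosolic acetyl-CoA from citrate, had 529.2, 534.6, 531.0 and 531.0 CPM with control siRNA. With A20 siRNA it had 519.0, 518.4, 511.0 and 496.0 CPM. The groups did not overlap, and the control samples agreed to a coefficient of variation of 0.424%, under the 0.846% that counting alone gives at this depth. The log2 fold change was -0.06 (SE 0.02, adjusted p = 0.193).

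FASN, the fatty acid synthase, was at 717.2, 664.5, 692.0 and 707.1 CPM with control siRNA and 740.7, 690.6, 711.9 and 697.1 CPM with A20 siRNA. Its groups overlapped and its log2 fold change was 0.03, with an interval from -0.02 to 0.09. ACACA, the acetyl-CoA carboxylase before it, had 62.5 ± 2.14 and 61.5 ± 1.72 CPM, and ELOVL6, which elongates its product, had 187.3 ± 2.74 and 189.4 ± 2.90 CPM (SD, n = 4 each). STARD4, a sterol carrier protein and SREBP target, had 54.3 ± 2.20 and 54.6 ± 2.36 CPM (SD, n = 4 each). None of these differences exceeded the spread between replicates.

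**Figure D2:**
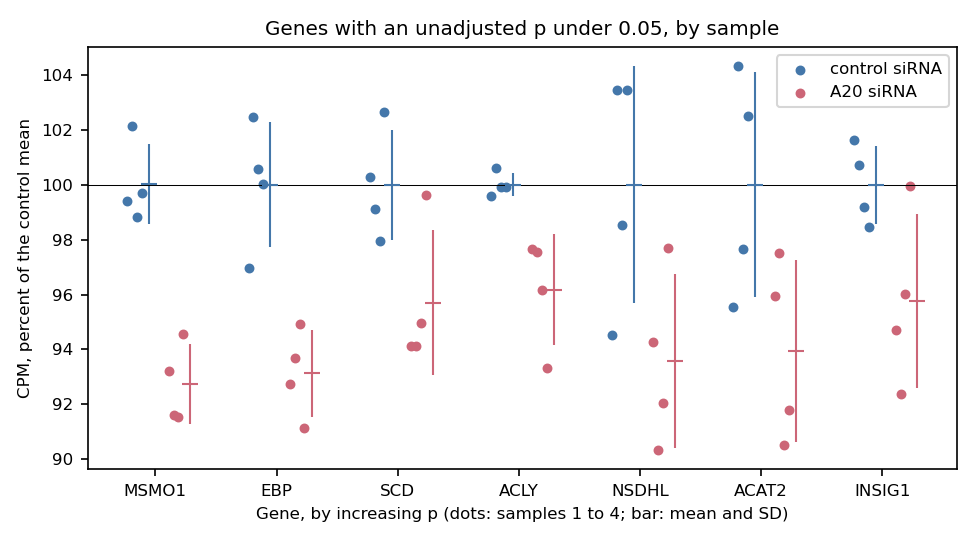
CPM of each sample as a percent of the control mean (vertical axis) for the 7 genes with an unadjusted p-value under 0.05, with control siRNA in blue and A20 siRNA in red. Bars show the mean and SD of 4 samples, and the groups are apart for MSMO1, EBP and ACLY and overlap for SCD, NSDHL, ACAT2 and INSIG1.

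Levels within the set differed far more than the groups did. Divided by exonic length, control levels ran from 145.3 ± 2.90 CPM per kb for SCD to 1.82 ± 0.184 for CYP51A1 (SD, n = 4 each), with MVK (1.86 ± 0.125) and HSD17B7 (1.89 ± 0.0960) within the spread of CYP51A1. The level of CYP51A1 is itself uncertain, as it has the fewest reads of the 28 and shares exons with genes that were not counted. SCD, ACLY and FASN were the most abundant per kb, at 145.3, 102.0 and 74.6 CPM per kb, and took between 51.6% and 52.5% of the reads of the 28 genes in every sample. SQLE, EBP, MSMO1 and FDFT1 followed at 56.0, 40.1, 35.8 and 35.4 CPM per kb, with FDFT1 within the SD of MSMO1 (0.519). SREBF2 stood at 23.0 ± 0.431 CPM per kb and SREBF1 at 7.81 ± 0.326 (SD, n = 4 each). The 7 genes from acetyl-CoA to farnesyl diphosphate were spread over the order. PMVK, ACAT2 and IDI1 had 24.0, 21.9 and 21.04 CPM per kb, FDPS had 13.2, and HMGCS1, MVD and MVK had 7.06, 4.02 and 1.86. The order was nearly the same with A20 siRNA, where 22 of the 28 genes kept their rank. Exonic length is that of all annotated exons together, which understates the level of genes with long, rarely used exons. The 28 genes together took between 0.376% and 0.384% of counts with control siRNA and between 0.372% and 0.380% with A20 siRNA.

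**Figure D3:**
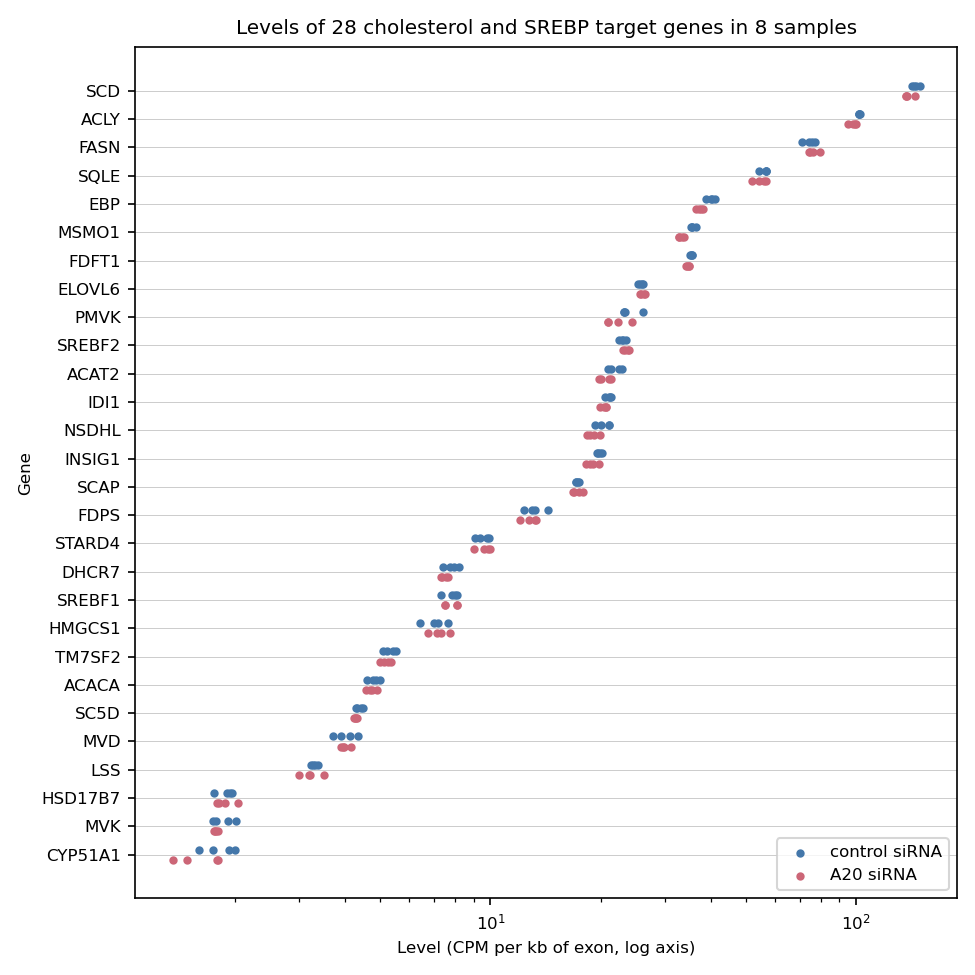
Level of each of the 28 genes in all 8 samples in CPM per kb of exon (horizontal log axis), with genes ordered by the control mean, control siRNA in blue and A20 siRNA in red. Levels run from 1.82 CPM per kb for CYP51A1 to 145.3 for SCD, while the colours lie close together within each gene.

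The change followed gene length within the set. The 5 genes with under 3000 exonic bases, PMVK, EBP, NSDHL, ACAT2 and MSMO1, lay between -0.11 and -0.09 on the log2 scale, with a median of -0.10. The other 23 had a median of -0.03. Across the 28 genes Spearman's rho of log2 fold change with exonic length was 0.64, and across 13316 tested genes with a length it was 0.18. Genes share their libraries and are not independent replicates, so these are descriptions. Over all tested genes under 3000 bases the median was -0.02. With offsets for a trend with length and GC content in each sample, rho was 0.34 within the set and -0.01 over all genes, and the 5 short genes had values from -0.10 to -0.07. The median of the 28 genes was -0.042 with the offsets and -0.034 without them. Over all tested genes it was -0.00092 and 0.0027. Below 0 were 23 of the 28 genes with the offsets and 22 without them. MSMO1 passed the threshold with these offsets (log2 fold change -0.10, adjusted p = 0.0385), while EBP was at -0.07 (adjusted p = 0.186).

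**Figure D4:**
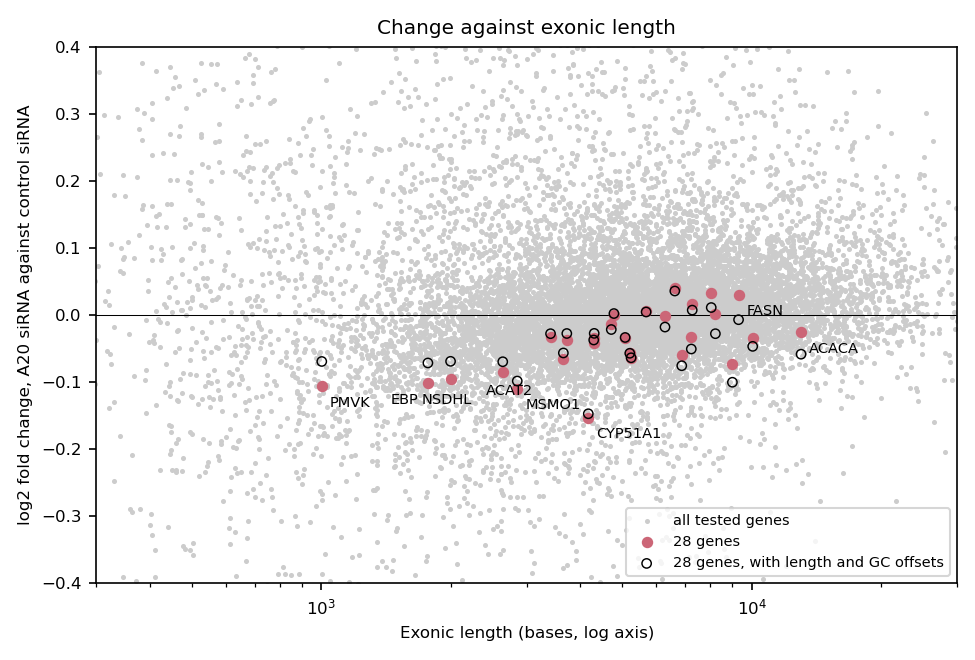
Log2 fold change after A20 siRNA (vertical axis) against exonic length in bases (horizontal log axis) for all tested genes in grey and the 28 genes in red, with open circles for the same genes after length and GC offsets. The 5 short genes lie between -0.11 and -0.09 and move towards 0 with the offsets. Of 13316 genes with a length, 528 lie outside the axes.

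Replicates of one group varied little in this gene set. The coefficient of variation ran from 0.424% to 13.9% over genes and groups, with a median of 3.01%. The median deviation of the 28 genes from their group mean was between -0.02 and 0.02 on the log2 scale in every sample. It was highest in control replicate 4, where 20 of 28 genes were above the group mean, and lowest in A20 siRNA replicate 3, where 7 were. Within-group deviations of the 28 genes over 8 samples had a median pairwise Pearson's r of 0.09, against -2.8e-05 over all pairs of tested genes, which share the same libraries.

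Other genes of lipid metabolism were taken from 6 lists of 137 genes in all, of which 123 were tested. By edgeR none of the 123 passed the adjusted threshold, against 1.25% of all tested genes. Before adjustment 5 lower and 8 higher passed 0.05, where 7.37% and 8.81% of all tested genes did. DESeq2 called none either. It gave no adjusted p-value to low-count genes such as TNFAIP3, so any such gene of the 123 could not be called by it. In the list of SREBP processing and sterol sensing, 15 of 20 values were below 0 with a median of -0.02. The smallest p-value there was that of SEC31A, a coat protein of vesicles leaving the endoplasmic reticulum, at 68.1 ± 0.980 and 72.3 ± 1.54 CPM (SD, n = 4 each), or 0.09 on the log2 scale (adjusted p = 0.111). In the isoprenoid branch 14 of 19 were below 0, and COQ3 of ubiquinone synthesis had the smallest p-value, with a log2 fold change of -0.10 (adjusted p = 0.246). In sterol uptake, transport, esterification and efflux 9 of 21 were below 0, and SOAT1, which esterifies cholesterol, had 0.07 (adjusted p = 0.301).

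The remaining lists were also mixed in sign. In fatty acid elongation, desaturation and activation 14 of 21 values were below 0, led by ACSL4, which activates long fatty acids, with a log2 fold change of -0.04 (adjusted p = 0.352). In glycerolipid and phospholipid synthesis 9 of 22 were below 0, and LPIN3, a phosphatidate phosphatase, had 0.19 (adjusted p = 0.124). In the list of cofactors and energy sensors 7 of 21 were below 0. PPARA, a nuclear receptor that induces fatty acid oxidation, came closest to the threshold of all these genes, at 40.5 ± 1.86 and 44.7 ± 1.46 CPM (SD, n = 4 each), or 0.14 on the log2 scale (SE 0.04, adjusted p = 0.0595).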

How the data were processed

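RNAseq of 8 RKO samples was used, 4 per siRNA group, grouped by the sample labels. The authors captured polyadenylated RNA, trimmed reads with Trimmomatic, mapped them to GRCh38.p7 with STAR and deposited raw counts of uniquely mapping reads per gene, not normalized. Tool versions, the GENCODE release and the strand setting are not given in the sources used here.

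The tests were run in edgeR 4.0.16 (R 4.3.3), with filterByExpr with a minimum count of 10, TMM normalization and the quasi-likelihood test without covariates, with Benjamini-Hochberg adjustment over all 13412 tested genes and a threshold of 0.05. The SE is the absolute log2 fold change over the square root of F, and 95% intervals from the same test. Symbols, coordinates and exonic lengths came from GENCODE 44 by identifier without version, with 56948 of 57992 genes matched. No 2 replicates of a group agreed within sampling noise (chi-square per degree of freedom from 1.31 to 3.69). A level of 3 counts is 0.0875 to 0.141 CPM by sample, and such floors cover counting error only. The 28 genes and the lists were chosen with earlier results of these data known. Named were all 28 genes, TNFAIP3, and in each lipid list the gene of smallest p-value where none passed. Alternatives were RLE normalization, other filters, DESeq2 1.42.0, limma-voom 3.58.1, the replicate number as a block, length and GC offsets (loess, span 0.5) and samples left out. The fits were tested on simulated data.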

Additional observations from a re-analysis of the deposited data

Results flagged for a closer look

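A search of 58 groups, each with 4 values of a gene, gave 4 values that stood far from the rest. Chance alone flags about 2.9. For PMVK, control replicate 4 lay above the other controls (26.2 CPM against 23.2 to 23.4), with a gap of 0.935 of the group's range. For SQLE, control replicate 3 lay below the others (233.4 CPM against 243.4 to 243.9), with a gap of 0.956 of the range. For SCD, A20 siRNA replicate 4 lay above the others (759.1 CPM against 717.2 to 723.6), with a gap of 0.848 of the range. For TNFAIP3, A20 siRNA replicate 2 lay below the others (3.01 CPM against 3.40 to 3.47), with a gap of 0.847 of the range.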

How the results depend on the processing

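MSMO1 was the only one of the 28 called, and none was called higher, under each change of the processing with all samples kept. These were a filter of at least 10 counts per sample, no filter, RLE factors, DESeq2 and limma-voom. The others were the length and GC offsets, and the replicate block with or without them. The replicate block gave MSMO1 a log2 fold change of -0.11 (adjusted p = 0.0197) and called 212 genes lower (1.58% of all tested) and 262 higher, against 82 and 85 without it. The labels give only a number. Deviations of same-numbered samples correlated by -0.0098 to 0.084 over genes, and 4 of 8 samples correlated best with their own number. These values do not settle whether the samples were paired. The main test was planned without covariates, and the replicate block is given beside it. With one sample left out, between 0 and 3 of the 28 were called lower and 0 called higher. The median of the log2 fold changes of the 28 was between -0.049 and -0.031. The 3 were MSMO1, NSDHL and EBP without control replicate 1, where 3.18% of all tested genes were called lower. In the 6 fits with none of the 28 called, that share was 0.0443% to 1.14%. Without control replicate 1 and A20 siRNA replicate 2 together, 3 were called lower (ACAT2, MSMO1 and EBP), as were 3.61% of all tested genes. The cause was not tested.

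Of the 28 genes, 20 kept their direction under every alternative. SREBF1 turned to -0.0010 with RLE, -0.0028 without a filter, -0.0020 with DESeq2, -0.00083 with the replicate block, -0.028 with the offsets, -0.029 with the replicate block and offsets, and -0.0083 without both libraries. HSD17B7 turned to 0.0018 with limma-voom, 0.0025 with the offsets and 0.0024 with the replicate block and offsets. FASN turned to -0.0067 with the offsets and -0.0066 with the replicate block and offsets. MVD turned to 0.039 without both libraries. With one sample or both of these libraries left out, log2 fold changes ran from -0.027 to 0.019 for SREBF1, -0.019 to 0.0092 for SCAP, -0.0055 to 0.091 for HMGCS1, -0.052 to 0.039 for MVD, -0.070 to 0.0025 for FDPS, -0.081 to 0.018 for HSD17B7 and -0.019 to 0.054 for STARD4.

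Of the genes of the other lipid lists, none was called in the main test with all 8 samples. PPARA was called higher with no filter, as were 314 of 28754 genes, and with the replicate block, as were 262 of 13412. SAR1B was called lower with the replicate block and offsets, where 1.76% of all tested genes were. With one sample left out, 0 to 1 were called lower and 0 to 2 higher. Those calls came without control replicate 1, where 3.18% of all tested genes were called lower and 567 of 13529 higher. Without both libraries 1 was called lower (SEC13) and 4 higher, where 3.61% of all tested genes were called lower and 614 of 13384 higher. TNFAIP3 ran from -0.77 to -0.67 with one sample left out (adjusted p from 0.000141 to 0.0149), and DESeq2 gave -0.72 with no adjusted p-value. At 120 reads in its lowest sample, CYP51A1 limits what can be said at this depth.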
